A study of Mus musculus with 6 samples.

Results

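The folding and stress genes of the endoplasmic reticulum were followed in mouse liver as a set of 36 named genes. They span chaperones, disulfide isomerases, the translocon, the sensors of unfolded proteins and their degradation machinery. The choice was by function, and it was made with earlier results of these data known. A gene counted as measured when a probe set, a group of short probes read as 1 value, carried that gene symbol and no other in the platform's gene table. In all, 35 of the 36 genes had such a probe set, with 56 probe sets among the 12488 on the array, and Sdf2l1 was not analysed here. The livers came from C57BL/6 mice, an inbred laboratory strain, kept for 12 weeks either on a Western-style diet rich in fat or on a diet low in fat. Each diet had 3 arrays of total liver RNA. The labels name LDL receptor deficiency among the keywords, but give both groups only the strain and no mutation, and neither age nor sex. The labels call the arrays replicates without saying whether each is 1 mouse or a pool, so p-values measure the spread between these arrays, which may be technical.

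The endoplasmic reticulum is where secreted and membrane proteins enter the secretory pathway, and hepatocytes, which make most plasma proteins, are rich in it. Proteins pass through the Sec61 channel, are folded by chaperones such as the Hsp70 protein BiP, are cross-linked by disulfide isomerases, and are returned to the cytosol for destruction if they stay unfolded. Unfolded proteins activate the sensors Ire1, Perk and Atf6, which act through the transcription factors Xbp1, Atf4 and a cleaved form of Atf6 to switch on chaperone and degradation genes, a programme called the unfolded protein response.

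Promoter sequences are shown first because several members share a known control element of that programme. RefSeq promoters (mouse build GRCm38.p6, from 250 bases before to 50 bases after a transcription start site) were found for 29 of the 36 members, as 34 windows. The endoplasmic reticulum stress element ERSE was searched as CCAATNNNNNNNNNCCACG, and its variant ERSE-II as ATTGGNCCACG, each on both strands. The motifs share the letters CCACG, and no member held both. ERSE was found in the windows of 7 members, Calr, Canx, Creld2, Dnajc3, Hsp90b1, Hspa5 and Pdia6, and in 0.119% of all 32851 promoter windows. ERSE-II was found in Dnajb11 and Herpud1 and in 0.0365% of all windows. The core TGACGTGG of the unfolded protein response element, which holds CCACG on its other strand, was found in Txndc5 and Vcp and in 0.676% of all windows. The members were picked for functions that this element is known to serve, so its frequency among them is a description. Hspa5, Creld2 and Herpud1 are printed because they had the smallest p-values among the members, and capitals mark the element. The stretches lie at chr2:34772013-34772089 (Hspa5), chr15:88819508-88819645 (Creld2) and chr8:94386365-94386428 (Herpud1), all on the plus strand, and each ends at the base before the start site.
Hspa5: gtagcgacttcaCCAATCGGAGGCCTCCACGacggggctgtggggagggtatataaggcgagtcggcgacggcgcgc
Creld2: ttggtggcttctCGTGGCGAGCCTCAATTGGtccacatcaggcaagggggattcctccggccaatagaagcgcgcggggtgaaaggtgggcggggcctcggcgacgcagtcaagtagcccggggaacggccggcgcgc
Herpud1: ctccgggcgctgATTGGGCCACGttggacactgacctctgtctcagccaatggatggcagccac

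The element of Hspa5 begins 65 bases and that of Herpud1 52 bases before the start site. That of Creld2 reads CCAAT to CCACG on the other strand, so the capitals show its reverse complement, and in the printed direction it begins 126 bases before the start site. The element of Dnajb11 lies just after the start site, and Hsp90b1 has 2 elements.

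**Figure D1:**
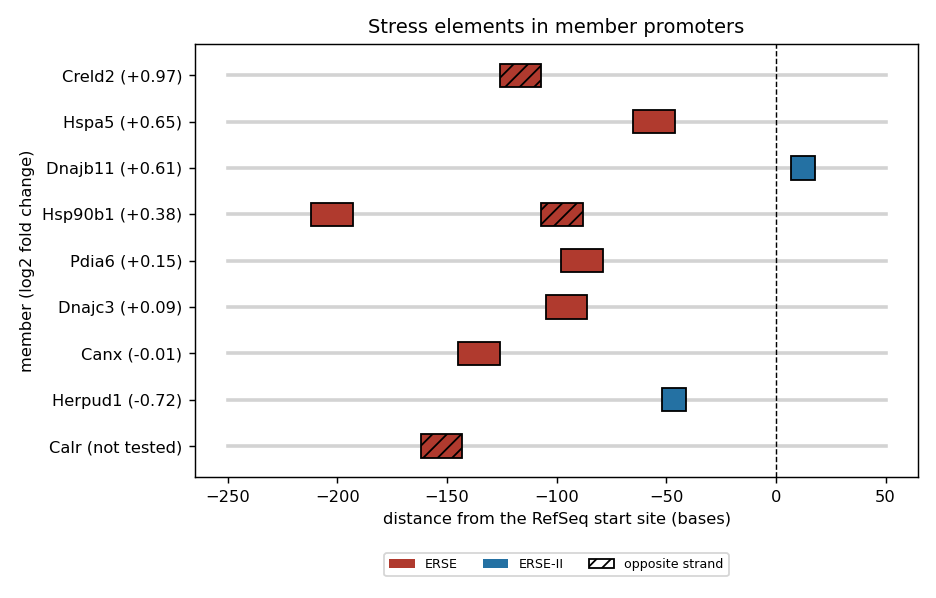
Positions of ERSE (red) and ERSE-II (blue) in the windows of 9 members, with the distance in bases from the RefSeq start site on the x axis and hatching for matches on the opposite strand. The log2 fold change between diets stands beside each name, and members with an element run from 0.97 for Creld2 to -0.72 for Herpud1.

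In livers of the high-fat diet, 5 of 7 tested chaperones and cofactors stood higher on all 3 arrays than on any low-fat array, as 7.82% of all tested genes did, while Herpud1, a membrane protein of the degradation machinery, stood lower on all 3, as did 6.68% of all tested genes. The one member that passed the test was Creld2, a stress-induced secreted and luminal protein, which rose 1.96-fold, a call that was lost with any 1 of the 6 arrays left out. Hspa5, which encodes BiP, was 1.57-fold higher and did not pass. The sensor genes Atf6 and Eif2ak3 (Perk) and the factor Xbp1 had log2 differences between -0.29 and 0.14, and 0 of these 3 passed; the gene of Ire1 was not analysed here.

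Values below are deposited intensities on a linear scale, and log2 fold changes are high-fat minus low-fat after values under an intensity of 68.9 were raised to that floor. A gene was tested with limma through its brightest probe set, with p-values adjusted by Benjamini and Hochberg over all 6557 genes tested. Of the 35 measured members, 32 passed the filter on low values. Of these 32, 1 rose, 0 fell and 31 did not pass an adjusted p of 0.05, against 0.976% of all tested genes called in either direction. Among the 49 tested probe sets of members the count called was also 1, against 0.827% of all 8950 tested probe sets. At an unadjusted p under 0.05 there were 9 members, 7 higher and 2 lower, against 9.5% of all tested genes. The median log2 fold change of the 32 was 0.12, against 0.0077 over all tested genes, and 22 lay above 0. Arrays of the diets did not overlap, with the high-fat arrays higher, in 8 members, or 25%, against 7.82% of all tested genes, and with the high-fat arrays lower in 1 member, against 6.68%. The 8 were Creld2, Hspa5, Dnajb11, Manf, Hsp90b1, Erp29, Calu and Sec62, and the 1 was Herpud1. After quantile normalization the counts were again 8 and 1, and after scaling to a common array median they were 9 and 1. Because the members were chosen with earlier results of these data known, these shares are a description and not a test.

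**Figure D2:**
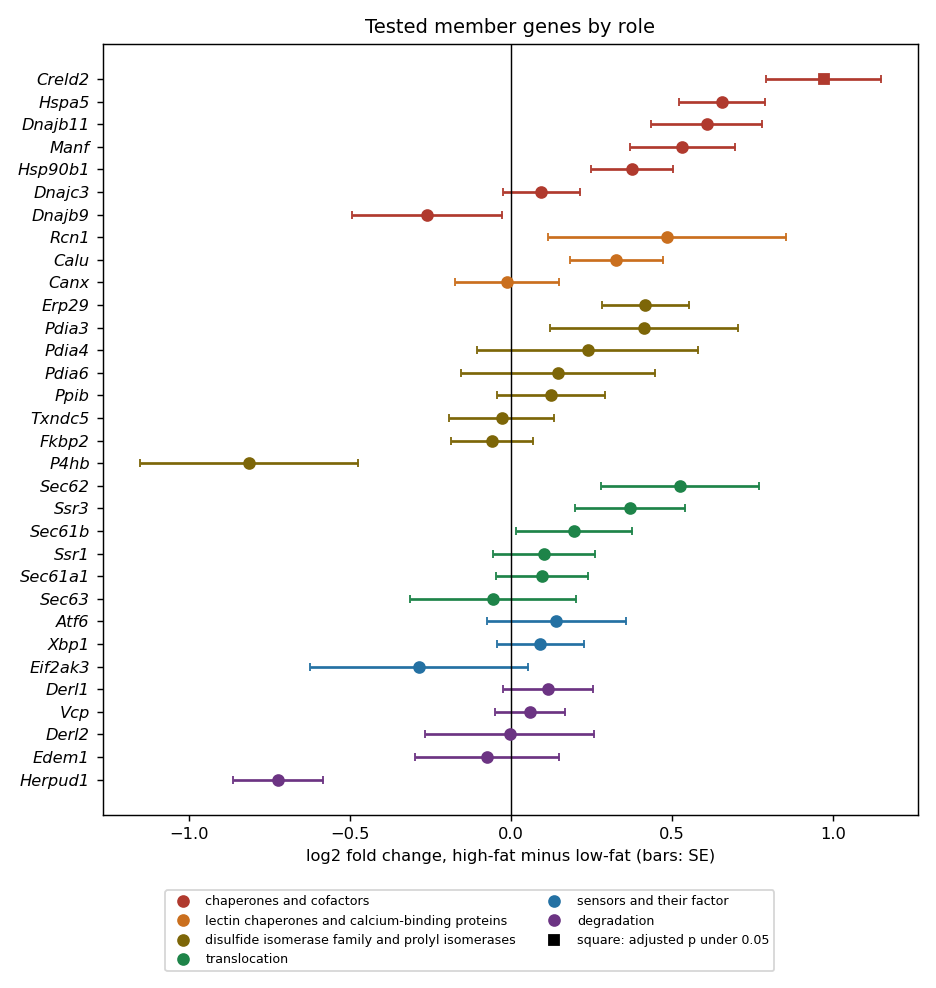
Log2 fold change, high-fat minus low-fat, of the 32 tested members, with the standard error as bars and colours by role. Creld2, drawn as a square, passed the test at 0.97, and Herpud1 and P4hb lie farthest below 0, at -0.72 and -0.81. The arrays of P4hb overlapped between the diets, and its dimmer probe set, not drawn, gave 0.05.

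Chaperones and cofactors included the members with the largest differences upward. Of 7 tested, 1 rose and 6 did not pass, 6 lay above 0, and the median of the 7 was 0.53. Creld2 had intensities of 1130, 915 and 837 on the 3 high-fat arrays, against 493, 564 and 414 on the low-fat arrays. The lowest high-fat array was thus well above the highest low-fat array. Creld2 averaged 961 ± 152 in high-fat livers and 490 ± 75 in low-fat livers (SD, n = 3 each). Its log2 fold change came to 0.97 ± 0.18 (SE), and the adjusted p was 0.0448 in limma over genes and 0.0499 over probe sets. That call was lost with any 1 of the 6 arrays left out, where limma's adjusted p ran from 0.0516 to 0.156, and also after quantile normalization (0.0556), after scaling to a common median (0.0785), with a floor at the 10th percentile (0.0504), without the variance trend (0.147) and without the filter on low values (0.208).

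Hspa5, the Hsp70 chaperone of the lumen and the protein that holds the sensors inactive, had intensities of 9864, 8278 and 9604 on the high-fat arrays, against 5217, 6427 and 5999 on the low-fat arrays. The groups did not overlap. The log2 difference was 0.65 ± 0.13 (SE, adjusted p = 0.0638 in limma), and it ran from 0.57 to 0.80 over 24 alternatives. Under quantile normalization (adjusted p = 0.0359), a floor at the 50th percentile (0.0429) and a filter asking for all 6 arrays (0.0493) it passed. Hspa5 did not pass with any single array left out, where limma's adjusted p ran from 0.131 to 0.211. It also failed after scaling to a common median (0.129), without the variance trend (0.250) and without the filter on low values (0.206). Further failures in limma came with a floor at the 10th percentile (0.0847), an added constant (0.0590), robust estimation (0.0524) and array weights (0.0678). The same held with a replicate block (0.0539), the Gapdh ratio as a covariate (0.0505), shared probe sets left out (0.0689) and probe sets averaged (0.0742).

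Dnajb11, an Hsp40 partner of BiP, read 764, 760.5 and 693 on the high-fat arrays, against 410, 583 and 476 on the low-fat arrays, a log2 difference of 0.61 ± 0.17 (SE, adjusted p = 0.232 in limma). Manf, a secreted factor induced by stress of the endoplasmic reticulum, read 3421, 2689 and 2699 on the high-fat arrays, against 1656, 2378 and 2086 on the low-fat arrays. Its log2 difference was 0.53 ± 0.16 (SE), with an adjusted p of 0.276 in limma. Low-fat array 2 was the highest low-fat array for both genes and came closest to the high-fat arrays.

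Hsp90b1, the Hsp90 chaperone of the lumen also called Grp94, had intensities of 7143, 6638 and 6116 on the high-fat arrays, against 4915, 4685 and 5773 on the low-fat arrays. The gap between the diets was narrow, between high-fat array 3 and low-fat array 3. The log2 difference was 0.38 ± 0.13 (SE, adjusted p = 0.362 in limma). The other 2 tested cofactors did not share this separation. Dnajc3, an inhibitor of eIF2-alpha kinases and a partner of BiP, had log2 differences of 0.09, 0.35 and 0.33 on its 3 tested probe sets. Dnajb9, an Hsp40 protein induced by Xbp1, had differences of -0.26 and -0.51 on its 2 probe sets, with overlapping arrays. The probe set of Hyou1, a large Hsp70-like nucleotide exchange factor, read between 2.9 and 5.2 on all 6 arrays, far under the floor, and was not tested.

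**Figure D3:**
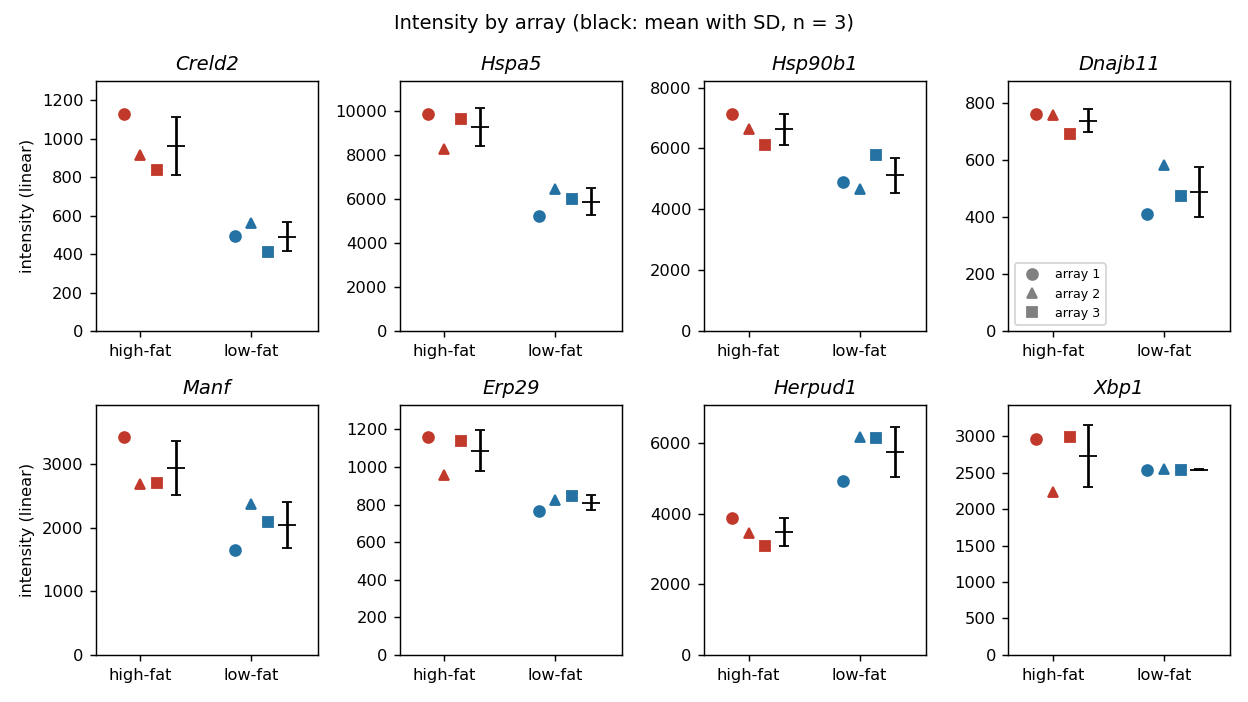
Deposited intensity of 8 members on each array, with high-fat arrays in red and low-fat arrays in blue, symbols for array numbers and the mean with SD in black (n = 3). High-fat arrays lie above all low-fat arrays for Creld2, Hspa5, Hsp90b1, Dnajb11, Manf and Erp29, below them for Herpud1, and on both sides of them for Xbp1.

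Among lectin chaperones and calcium-binding proteins, 3 of 4 genes were tested and 0 passed limma's threshold, with 1 at an unadjusted p under 0.05. Calu, which encodes the calcium-binding protein calumenin, read 866, 888 and 941.5 on the high-fat arrays, against 619, 770.0 and 770.1 on the low-fat arrays. Its log2 difference was 0.33 ± 0.14 (SE, adjusted p = 0.524 in limma). Rcn1, a related calcium-binding protein, had a log2 difference of 0.48 ± 0.37 (SE) at intensities from 76.8 to 193, close to the floor. Canx, the membrane lectin chaperone calnexin, had differences of -0.01 and -0.04 on its 2 probe sets. Calr, its soluble relative calreticulin, had 1 probe set, which read 59.1, 68.5 and 58.3 on the high-fat arrays, against 4.5, 25.6 and 91.2 on the low-fat arrays. With 1 of 6 arrays above the floor, Calr was not tested.

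Disulfide isomerases and prolyl isomerases, which form disulfide bonds and turn proline bonds during folding, had 8 tested genes, 0 past limma's threshold, 2 at an unadjusted p under 0.05 and a median of 0.14. Erp29, a non-catalytic member of the disulfide isomerase family, read 1158, 959.9 and 1139 on the high-fat arrays, against 764, 825 and 843 on the low-fat arrays. Its log2 difference was 0.42 ± 0.13 (SE, adjusted p = 0.326 in limma), and its dimmer probe set gave 0.61 ± 0.45 (SE). That dimmer probe set had only 1 low-fat array above the floor, so its difference depends on the floor. Pdia3, which works with the lectin chaperones, ranged from 1633 to 1952 on the high-fat diet and from 881.5 to 2282 on the low-fat diet, so the low-fat arrays enclosed the high-fat ones. Pdia4 was low on array 3 of both diets, with 1273 for high-fat and 1001 for low-fat, while its other 4 arrays lay between 2046 and 2786.

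Pdia6 was read by 3 probe sets with log2 differences of 0.15, 0.70 and 0.51. The dimmest of these read 365, 383 and 517 on the high-fat arrays, against 243, 210 and 329 on the low-fat arrays, and did not overlap (adjusted p = 0.402 in limma over probe sets). The brightest, used for the gene, overlapped. P4hb, the founding disulfide isomerase, gave opposite signs on its 2 probe sets. The brighter one read 1644, 786 and 2197 on the high-fat arrays, against 3004, 1896 and 2708 on the low-fat arrays, a log2 difference of -0.81 ± 0.34 (SE, adjusted p = 0.482 in limma) with overlapping arrays, and without high-fat array 2 it was -0.39. The dimmer one gave 0.05 ± 0.25 (SE). Txndc5, Fkbp2 and Ppib had log2 differences of -0.03, -0.06 and 0.12.

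Of the translocation genes, 6 of 7 were tested and 0 passed limma's threshold, with 0 at an unadjusted p under 0.05, 5 above 0 and a median of 0.15. Sec61a1, the channel-forming subunit, read 4040, 4498.5 and 3259 on the high-fat arrays, against 3750.2, 3854 and 3352.5 on the low-fat arrays, a log2 difference of 0.10 ± 0.14 (SE, adjusted p = 0.909 in limma). These arrays overlapped, while its second probe set, with a log2 difference of 0.29 ± 0.13 (SE, adjusted p = 0.547 in limma over probe sets), did not. Sec61b, another channel subunit, had a log2 difference of 0.20 ± 0.18 (SE). Ssr1 and Ssr3 encode subunits of the translocon-associated complex, and the brightest probe sets gave log2 differences of 0.10 and 0.37. The dimmer probe set of Ssr1 read 125, 164 and 204 on the high-fat arrays, against 86, 55.1 and 120.2 on the low-fat arrays, and did not overlap (log2 difference 0.85 ± 0.31, SE, adjusted p = 0.409 in limma over probe sets). Low-fat array 2 was under the floor there, so the size of this difference depends on the floor. Ssr3 was high on the arrays numbered 3: its second probe set read 2840 on high-fat array 3 and 2164 on low-fat array 3, and between 964.5 and 1264 on the other 4 arrays. Its first probe set read 4787, 5005 and 6894 on the high-fat arrays, against 3633, 4300 and 4911 on the low-fat arrays. There only high-fat array 1 fell below a low-fat array, and limma's adjusted p was 0.559. Sec62, an accessory of the channel, read 471, 809 and 534 on the high-fat arrays, against 324, 451 and 468 on the low-fat arrays, with a gap of a few units between the diets. That probe set gave a log2 difference of 0.52 and the others -0.20 and -0.40, so the direction of Sec62 was not settled. Sec63, a membrane-bound Hsp40 protein of the channel, had a difference of -0.06. Ssr4 read between 17.5 and 61.5 on all 6 arrays and was not tested.

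Of the 2 sensor genes and Xbp1, 0 passed limma's threshold and 0 had an unadjusted p under 0.05. Xbp1, whose transcript is spliced by Ire1, read 2960, 2242 and 2986 on the high-fat arrays, against 2535, 2546 and 2543 on the low-fat arrays. The low-fat arrays lay within the range of the high-fat ones. Its log2 difference was 0.09 ± 0.14 (SE, adjusted p = 0.910 in limma), and a gene-level intensity does not separate spliced from unspliced transcripts. Atf6, the sensor released by cleavage in the Golgi, read 344.5, 286 and 365 on the high-fat arrays, against 274, 353 and 276.5 on the low-fat arrays. Its log2 difference was 0.14 ± 0.21 (SE, adjusted p = 0.912 in limma). Eif2ak3, which encodes the kinase Perk, read 49.3, 114 and 169 on the high-fat arrays, against 137, 135 and 130 on the low-fat arrays. With 1 high-fat array under the floor, its log2 difference was -0.29 ± 0.34 (SE, adjusted p = 0.880 in limma). The activity of all 3 proteins is set after transcription, and these arrays measured transcripts.

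Of the 5 degradation genes, 0 passed limma's threshold and 1 had an unadjusted p under 0.05. That gene was Herpud1, which links the ubiquitin ligase of the membrane to its substrates. It read 3880, 3463 and 3085 on the high-fat arrays, against 4917, 6162 and 6149 on the low-fat arrays, so the arrays did not overlap. Herpud1 averaged 3476 ± 398 in high-fat livers and 5743 ± 715 in low-fat livers (SD, n = 3 each). The log2 difference of -0.72 ± 0.14 (SE, adjusted p = 0.0535 in limma) ran from -0.83 to -0.59 over 24 alternatives. It passed under quantile normalization (0.0489), with array weights (0.0389), with robust estimation (0.0495), with the Gapdh ratio as a covariate (0.0478), with a floor at the 50th percentile (0.0404) and with a filter asking for all 6 arrays (0.0431). Herpud1 did not pass with any single array left out, where limma's adjusted p ran from 0.0598 to 0.236. It also failed after scaling to a common median (0.0972), without the variance trend (0.235) and without the filter on low values (0.226). Further failures in limma came with a floor at the 10th percentile (0.0684), an added constant (0.0539) and a replicate block (0.0544). The same held with shared probe sets left out (0.0553) and probe sets averaged (0.0619). The channel candidates Derl1 and Derl2 had log2 differences of 0.12 and -0.0046 on the brighter probe sets. Vcp, the ATPase that pulls substrates out of the membrane, gave 0.06 ± 0.11 (SE) on its brightest probe set and 0.15 and -0.36 on dimmer ones. Edem1, a lectin that marks misfolded glycoproteins, had a difference of -0.08 ± 0.22 (SE).

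Members with a stress element did not share 1 direction. Of the 8 that were tested, 4 did not overlap with the high-fat arrays higher (Creld2, Hspa5, Dnajb11 and Hsp90b1), 1 with the high-fat arrays lower (Herpud1), and 3 overlapped (Canx, Dnajc3 and Pdia6). The median log2 fold change of these 8 was 0.26, against 0.07 in the 18 tested members whose windows held neither ERSE nor ERSE-II, where 2 did not overlap with the high-fat arrays higher. Over all tested genes the shares without overlap were 7.82% higher and 6.68% lower. Dnajb11 and Herpud1, the pair with ERSE-II, had log2 differences of 0.61 and -0.72. Manf and Erp29 had no window in the table used.

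Of the 12 members with more than 1 tested probe set, 7 had all log2 differences of 1 sign and 5 did not: Derl1, P4hb, Sec62, Ssr3 and Vcp. Relative to each gene's own mean, the median over the 7 tested chaperones and cofactors was 0.35, 0.17 and 0.21 (log2) on high-fat arrays 1, 2 and 3, against -0.47, -0.04 and -0.22 on low-fat arrays 1, 2 and 3. The same medians over all tested genes lay between -0.014 and 0.028. Over all 32 tested members they were 0.12, 0.04 and 0.14 on the high-fat arrays, against -0.19, 0.004 and -0.06 on the low-fat arrays. In every other role the medians of the diets overlapped. For the disulfide and prolyl isomerases they were 0.22, 0.03 and -0.03 on the high-fat arrays, against 0.05, 0.11 and -0.24 on the low-fat arrays. For the chaperones and cofactors, low-fat array 1 was the farthest from the high-fat arrays and low-fat array 2 the nearest.

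**Figure D4:**
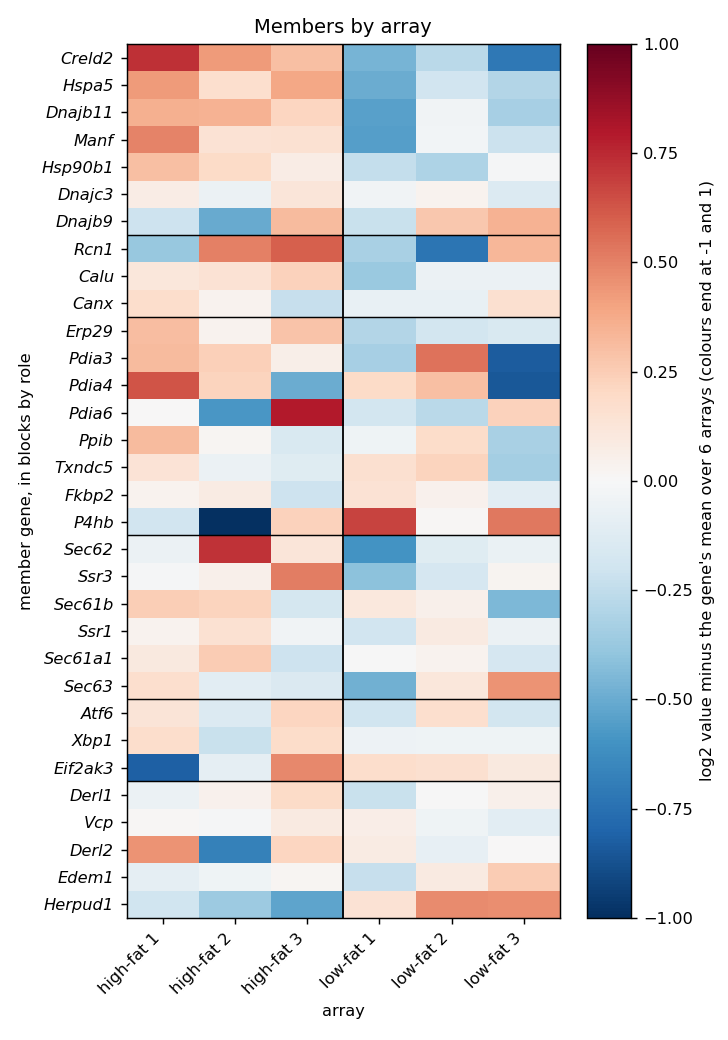
Log2 value of each tested member minus its own mean over the 6 arrays, with high-fat arrays left and low-fat arrays right of the line and blocks of genes by role. The first 5 rows, from Creld2 to Hsp90b1, are above their mean on all high-fat arrays, and the bottom row, Herpud1, is below it on all of these. Pdia4 is low on both arrays numbered 3.

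Several sample properties moved with single arrays, and their part in these results was not tested except where fits are given. The 3' to 5' ratio of the Gapdh control, a measure of how complete the labelled RNA was, was lowest on high-fat array 3 (0.889) and low-fat array 3 (0.824), and lay between 1.04 and 1.23 on the other 4. The pyruvate carboxylase ratio was also lowest there (2.62 on high-fat array 3 and 2.65 on low-fat array 3, and 3.78 to 7.96 on the others). The beta-actin ratio was not: it was 1.79 on high-fat array 3, between the other high-fat arrays, and 1.75 on low-fat array 3, the highest of the low-fat arrays. The Gapdh ratio averaged 1.12 ± 0.20 in high-fat livers and 0.977 ± 0.133 in low-fat livers, with SD over n = 3 each (exact two-sided permutation p = 0.3, where 0.1 is the smallest possible with 3 arrays a group). Of the 32 members, 7 were highest and 8 lowest on array 3 of both diets, or 21.9% and 25%, against 19.6% and 16% of all tested genes. Without both of these arrays the log2 difference was 0.95 for Creld2 (adjusted p = 0.0916 in limma), 0.64 for Hspa5 and -0.59 for Herpud1. Pancreatic acinar cells are also rich in endoplasmic reticulum, and 11 of 19 acinar markers were measured. The sum of their intensities ran from 3379 to 14755 on the high-fat arrays, against 3406 to 8781 on the low-fat arrays, with 0 of 11 called by limma, 10 above 0, a median log2 difference of 0.56 and 9 of 11 highest on the arrays numbered 2 of both diets. On those arrays Hspa5 was the lowest of the high-fat and the highest of the low-fat group. Without both arrays numbered 2 the log2 difference was 1.11 for Creld2 (adjusted p = 0.255 in limma), 0.80 for Hspa5 and -0.67 for Herpud1, and 6 probe sets in all were called. In bulk tissue, fewer cells of a type and less RNA per cell cannot be told apart.

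Hepatocyte markers, 9 of 11 measured and all 9 tested, summed to between 166572 and 203634 on the high-fat arrays, against 158077 to 199821 on the low-fat arrays. The macrophage sum, over 12 measured markers, ran from 11398 to 13674 on the high-fat arrays, against 8318.5 to 11353 on the low-fat arrays. The diets thus did not overlap. Of 11 tested macrophage markers, 0 were called by limma and 11 lay above 0, with a median log2 difference of 0.38. The part of macrophages in the results was not tested. Sums of plasma and B cell, stellate, endothelial and fat cell markers overlapped between the diets, with 0 called in each list. For bile duct cells 4 markers were measured and 0 could be tested, with sums from 51.1 to 89.4 on the high-fat arrays, against 82.9 to 203 on the low-fat arrays, and their defining keratin Krt19 was under the floor on all but low-fat array 1.

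Other genes of the secretory pathway were read as 5 further lists. In transport from the endoplasmic reticulum to the Golgi, 0 of 24 tested genes passed limma's threshold, 5 had an unadjusted p under 0.05, 21 lay above 0 and the median was 0.15. In 8 of the 24 the arrays did not overlap with the high-fat arrays higher, and in 0 with the high-fat arrays lower, against 7.82% and 6.68% of all tested genes. The same counts, higher and lower, were 4 and 1 of 12 for the other sensor and degradation genes. They were 1 and 0 of 27 for targeting, glycosylation and signal cleavage. For the other folding genes they were 1 and 2 of 15, and for the Eif2ak3 to Atf4 branch 1 and 2 of 17. Tmed3, a cargo receptor of the p24 family, read 966, 983 and 768 on the high-fat arrays, against 394, 619 and 506 on the low-fat arrays. For Tmed3 the log2 difference was 0.85 ± 0.20 (SE, adjusted p = 0.110 in limma). Sec23b, a coat protein of the vesicles that leave the endoplasmic reticulum, had a difference of 0.59 ± 0.18 (SE, adjusted p = 0.265 in limma). Signal targeting, glycosylation and signal cleavage had 0 of 27 called, 1 at an unadjusted p under 0.05 and a median of 0.02. There the signal peptidase subunit Spcs2 read 752, 746 and 820.5 on the high-fat arrays, against 581, 504 and 611 on the low-fat arrays (log2 difference 0.46 ± 0.15, SE, adjusted p = 0.326 in limma). The oligosaccharyltransferase gene Stt3b had a difference of 0.38 ± 0.17 (SE, adjusted p = 0.545 in limma).

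The other folding genes had 0 of 15 called by limma, 2 higher and 2 lower at an unadjusted p under 0.05, and a median of 0.06. Ero1b, an oxidase that recharges disulfide isomerases, had a log2 difference of 0.46 ± 0.16 (SE) on a probe set marked as shared within a gene family. Pdia5, a further disulfide isomerase, had -0.36 ± 0.14 (SE), and neither passed (adjusted p = 0.367 and 0.424 in limma). The other sensor and degradation genes had 0 of 12 called and 1 at an unadjusted p under 0.05, Ubxn4, an anchor of Vcp at the membrane. It read 1181, 880 and 857 on the high-fat arrays, against 585, 660 and 623 on the low-fat arrays, a log2 difference of 0.63 ± 0.16 (SE, adjusted p = 0.177 in limma). Edem3, a relative of Edem1, had 0.36 ± 0.18 (SE, adjusted p = 0.587 in limma).

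The branch from Eif2ak3 to the transcription factor Atf4 had 0 of 17 genes called by limma, 1 higher and 1 lower at an unadjusted p under 0.05, and a median of 0.02. Atf5, a transcription factor related to Atf4, read 3414, 3151 and 1955 on the high-fat arrays, against 1761, 1332 and 741 on the low-fat arrays, and the arrays did not overlap. For Atf5 the log2 difference was 1.20 ± 0.31 (SE, adjusted p = 0.183 in limma). Trib3, a pseudokinase induced by this branch, read 186, 89.7 and 148 on the high-fat arrays, against 313, 241 and 220.2 on the low-fat arrays, with a log2 difference of -0.92 ± 0.32 (SE, adjusted p = 0.374 in limma). These 2 genes, both known targets of the branch, thus differed in opposite directions.

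**Figure D5:**
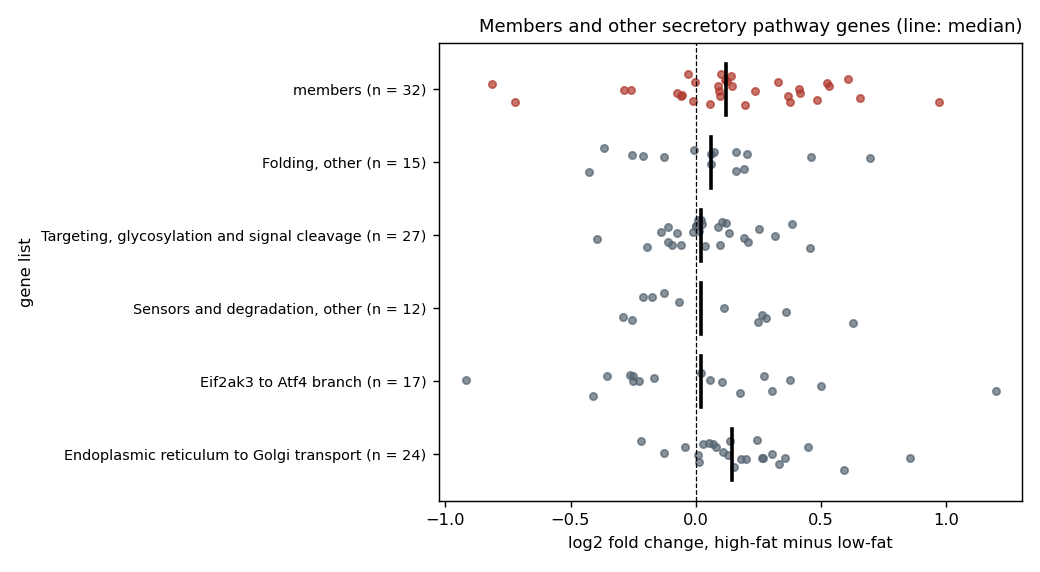
Log2 fold change, high-fat minus low-fat, of the 32 tested members (red) and of the tested genes of 5 other lists of the secretory pathway (grey), each point a gene and each line the list's median. Medians run from 0.02 to 0.15, with the highest in transport from the endoplasmic reticulum to the Golgi.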

How the data were processed

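Liver RNA was read on 6 Affymetrix mouse arrays, and the deposited table holds 1 linear intensity per probe set and array. The sources used here do not give the software, the background correction or the scaling step. In the deposited intensities each array had been scaled as a whole, with trimmed means from 499.55 to 499.9, so this scaling was kept. Array number limits the precision. The filter asked for at least 3 of 6 arrays above the pooled 30th percentile, an intensity of 68.9, and 66 control probe sets were left out.

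Log2 values of 8950 probe sets were fitted with limma 3.58.1 in R 4.3.3 (lmFit, eBayes with a variance trend), high-fat minus low-fat, two-sided. Gene results use the probe set with the highest mean, adjusted over 6557 genes. The fit was tested on simulated data. The members and lists were chosen with earlier results of these data known, so no list was tested. All members are named; array values are given for those past the threshold, the 10 smallest p-values and set role representatives, and further lists give the 2 genes with the smallest p. Other values were chosen after they were seen. Symbols of all 56 probe sets matched the RefSeq table of GRCm38.p6.

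Alternatives were other scalings, floors and filters, an added constant, other variance models, array weights, a replicate block, the Gapdh ratio as a covariate, arrays left out, shared probe sets left out, a mean over probe sets and an adjusted p of 0.10. Fits without both arrays numbered 2 or 3, and the adjustment over probe sets for genes, were chosen after seeing the data.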

Additional observations from a re-analysis of the deposited data

How the results depend on the processing

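The count of 1 member gene called was 2 under quantile normalization, robust estimation, array weights or the Gapdh ratio as a covariate, 3 with a floor at the 50th percentile, with all 6 arrays above the floor or at an adjusted p of 0.10, and 0 with a common array median, a floor at the 10th percentile, no filter or no variance trend. Under quantile normalization the 2 were Hspa5, higher, and Herpud1, lower, and Creld2 was lost. In the other settings with 2 they were Creld2, higher, and Herpud1, lower. In the settings with 3 they were Creld2, Hspa5 and Herpud1. The count of member genes ranged from 0 to 0 with each array left out in turn, and was 0 without both arrays numbered 2 or 3. The count of 1 member probe set called was 2 with all 6 arrays above the floor or with array weights, 3 with a floor at the 50th percentile or at an adjusted p of 0.10, and 0 with a common array median, a floor at the 10th percentile, no filter, no variance trend, without both arrays numbered 2 or 3, and with each array left out in turn. Over all probe sets 74 were called, 8 with no filter, 20 without the trend, 120 at an adjusted p of 0.10, 6 without both arrays numbered 2, 38 without both numbered 3, and 26 to 75 with each array left out. The members' median of 0.12 was 0.22 without both arrays numbered 2, and between 0.09 and 0.17 with each array left out. The causes were not tested, though fewer arrays are fitted where some are left out. With the replicate block, 103 probe sets and 1 member gene, Creld2 (adjusted p = 0.0278 in limma), were called. Deviations from the diet mean correlated between same-numbered arrays at r = 0.07, 0.11 and 0.31 for numbers 1, 2 and 3. The arrays numbered 3 resembled each other, with r between -0.21 and -0.12 to arrays of other numbers. For numbers 1 and 2 not every sample correlated best with its own number. Whether same-numbered arrays share a batch or are paired was not tested. Signs of Creld2, Hspa5, Hsp90b1, Dnajb11, Manf, Erp29, Calu and Herpud1 were kept in each of the 24 alternatives. For these genes every high-fat array lay on the same side of every low-fat array, so leaving arrays out could not turn the sign. Alternatives that changed only the filter, the variance model or the threshold left their log2 differences unchanged. The kept signs are therefore largely not a separate check. Members whose arrays overlapped, such as Xbp1, Atf6 and Dnajb9, also kept their sign in each of the 24. The sign of Sec62 turned, with a log2 difference of -0.02, when its probe sets were averaged. Signal near the floor limits Eif2ak3, Rcn1 and the dimmer probe sets of Erp29 and Ssr1, and Calr, Hyou1 and Ssr4 could not be tested. The probe design of Calr, Hyou1 and Ssr4 could not be checked, so low readings there do not show that the transcripts were absent.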
